A study of Homo sapiens with 8 samples.

Results

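The 3 libraries of BEAS-2B cells given LY96 siRNA and house dust mite (HDM) extract were compared with the 3 libraries given control siRNA and the same extract. These are 6 of the 8 libraries of the series; the PBS libraries were not used. BEAS-2B cells are normal human bronchial epithelium immortalised with viral genes. HDM extract, a mixture of mite allergens, carries proteases and bacterial lipopolysaccharide. All 6 shared the exposure to HDM and differed in the siRNA, per the labels. The medium was changed to BEBM, a growth-factor-poor basal medium, 24 h before the extract was added, and total RNA was taken 24 h after it. The sources used here do not give the dose of extract, the dose and sequence of the siRNAs or the interval between transfection and stimulation. The labels are silent on whether replicates were grown as separate cultures, and the spread on which the p-values rest may be technical. Values were read as FPKM, fragments scaled to transcript length and to the size of the library, so that levels of genes can be compared per length. Of 26485 genes, the 12598 whose 6 libraries averaged 1 FPKM or more were tested.

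LY96 itself (chr8:73991352-74029087, GRCh38) had a listed value of 0 FPKM in each of the 6 libraries, including the 3 with control siRNA. The knockdown could therefore not be checked from its target's RNA, and the groups are named by their labels throughout. LY96 encodes MD-2, the small secreted protein that holds lipopolysaccharide in the extracellular part of Toll-like receptor 4 (TLR4). Ligand binding brings receptors together, and the adaptors MyD88 and TRIF then pass the signal to NF-kB and to interferon regulatory factors. NF-kB drives chemokine and cytokine genes, and interferon regulatory factors drive type I interferon and, through it, a large antiviral programme. A separate pathway, the integrated stress response, starts from kinases that phosphorylate the initiation factor eIF2alpha; translation of most messages slows, while that of the transcription factor ATF4 rises, and ATF4 then switches on amino acid synthesis, amino acid transport and tRNA charging.

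The 6 libraries resembled one another closely. FPKM totals ranged from 330347 to 340328, and 12558 to 12604 genes per library reached 1 FPKM; read depth is unknown. Log2 values of library pairs correlated across genes at r = 0.987 to 0.995, and no pair was identical. Ribosomal RNA genes held 0.824%, 0.475% and 0.565% of all FPKM with control siRNA and 1.03%, 1.03% and 1.31% with LY96 siRNA. The groups did not overlap in that share (exact permutation test, two-sided, p = 0.1, the smallest that 3 against 3 libraries allow); its part in the gene results was not tested. All 8 airway epithelial markers were tested, and their summed FPKM was 1298 to 1344 with control and 1176 to 1240 with LY96 siRNA. Of the 8, 1 rose (12.5%, beside 6.68% of all tested genes) and 3 fell (37.5%, beside 8.92%). The groups did not overlap for any of the 8, beside 37.0% of all tested genes. SCGB1A1, SCGB3A1, MUC5AC and FOXJ1, which define secretory and ciliated airway cells, were at 0 in all 6 libraries. The other members of that list of 8 were below the minimum except the tubulin gene TUBA1A, which made up nearly all of a summed 119 to 124 FPKM with control and 120.1 to 125 with LY96 siRNA. PTPRC, CD3E, MS4A1 and TYROBP of leukocytes, DCN and LUM of fibroblasts, and PECAM1 and EMCN of endothelium were also at 0. Of 2 tested leukocyte markers CD68 rose by 0.54 and CD74 (0.06) did not pass; the 12 markers summed to 25.96 to 28.1 FPKM with control and 28.4 to 32.0 with LY96 siRNA. Of 3 tested fibroblast markers THY1 rose by 0.42 and COL1A1 by 0.37, and PDGFRB (-0.08) did not pass; the 7 markers summed to 28.3 to 30.3 against 32.8 to 38.6 FPKM. The COL1A1 call was lost without control replicate 1 (adjusted p = 0.0658), 2 (0.0684) or 3 (0.0834). No endothelial marker reached the minimum. In bulk RNA, fewer cells of a type and less RNA per cell cannot be told apart, and this holds for every result here.

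A total of 1966 genes, 15.6% of those tested, differed between the siRNAs (limma on log2(FPKM + 1), Benjamini-Hochberg adjusted p under 0.05). Of these, 842 genes (6.68% of those tested) were higher and 1124 (8.92%) were lower with LY96 siRNA. The differences were mostly small: the median log2 difference was 0.25 among the genes that rose and -0.22 among those that fell, against -0.02 over all tested genes. Only 74 rose and 66 fell by at least 1.5-fold, and 16 rose and 15 fell by at least 2-fold on this scale. The FPKM of the 2 groups did not overlap for 37.0% of all tested genes, and for 1964 of the 1966 that passed. The balance of directions rested on the scaling of the libraries: 42.8% of the calls were higher and 57.2% lower as deposited, against 54.9% and 45.1% after median-ratio scaling, and the small differences are to be read with that in mind. Many of the largest rises were in stress response, amino acid and chemokine genes, and many of the largest falls in interferon-stimulated and cornification genes.

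**Figure D1:**
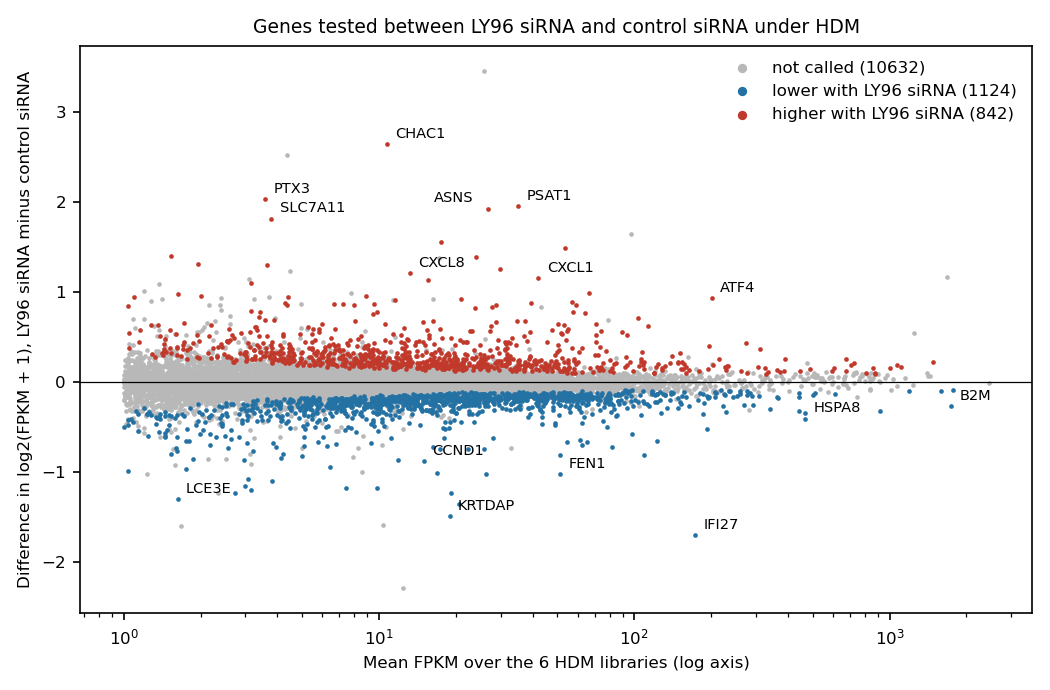
Each point is 1 of 12598 tested genes; the x axis is its mean FPKM over the 6 libraries on a log axis, and the y axis is the difference in log2(FPKM + 1), LY96 minus control siRNA under HDM. Coloured points are the 842 genes that rose and the 1124 that fell; most lie close to the line at 0, and CHAC1 at 2.64 and IFI27 at -1.70 mark the ends of the labelled range.

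The integrated stress response genes were the clearest rise. Of the 21 tested members of a list of 22 (FGF21 was below the minimum), 15 rose and none fell; their median difference was 0.59 over all 21. That is 71.4% of the list higher, beside 6.68% of all tested genes. The 4 kinases at the head of the pathway, which sense haem loss, double-stranded RNA, endoplasmic reticulum (ER) stress and uncharged tRNA, did not pass the test: EIF2AK1 differed by -0.11, EIF2AK2 by -0.05, EIF2AK3 by 0.02 and EIF2AK4 by 0.04 on the log2 scale.

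Of the 7 transcription factors of the response, 6 rose. ATF4, the factor through which the pathway acts (chr22:39519695-39522685, plus strand, GENCODE v29 on GRCh38), stood at 145, 139 and 132 FPKM with control siRNA and at 258, 282 and 254 with LY96 siRNA. The groups were far apart, with a 1.91-fold ratio of means and a log2 difference of 0.93 ± 0.05 (SE; adjusted p = 3.06e-05). DDIT3, which encodes CHOP, the partner that links prolonged stress to cell death, was at 8.74, 9.43 and 9.91 FPKM against 21.8, 24.2 and 19.6, a 2.33-fold rise (log2 1.14 ± 0.07, adjusted p = 1.12e-04). NUPR1, a small stress-induced chromatin protein, rose by 1.39, ATF3 by 0.68, and the C/EBP factors CEBPB and CEBPG by 0.59 each. ATF5 was the exception, with a difference of -0.19 that did not pass.

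Of 8 tested target genes 7 rose. CHAC1, an enzyme that breaks down glutathione, was at 2.93, 2.12 and 1.74 FPKM with control siRNA and at 17.2, 22.3 and 18.3 with LY96 siRNA. Every LY96 library was several times above every control library, and the log2 difference was 2.64 ± 0.15 (8.50-fold in FPKM, adjusted p = 2.56e-04). DDIT4, an inhibitor of the growth kinase mTORC1, had 30.3, 27.5 and 25.4 FPKM against 71.6, 89.9 and 77.4. SESN2, another brake on mTORC1, had 6.08, 5.92 and 5.18 against 11.8, 13.95 and 10.4. STC2, a secreted glycoprotein, was at 8.82, 8.01 and 8.31 against 25.8, 29.6 and 24.1. None of these groups overlapped, with log2 rises of 1.49, 0.95 and 1.55. TRIB3, the pseudokinase that feeds back on ATF4, rose by 1.25, while VLDLR rose by 0.28 and TXNIP, at -0.04, did not pass. The phosphatase subunits that reverse eIF2alpha phosphorylation rose less: PPP1R15A by 0.30 and PPP1R15B by 0.21.

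**Figure D2:**
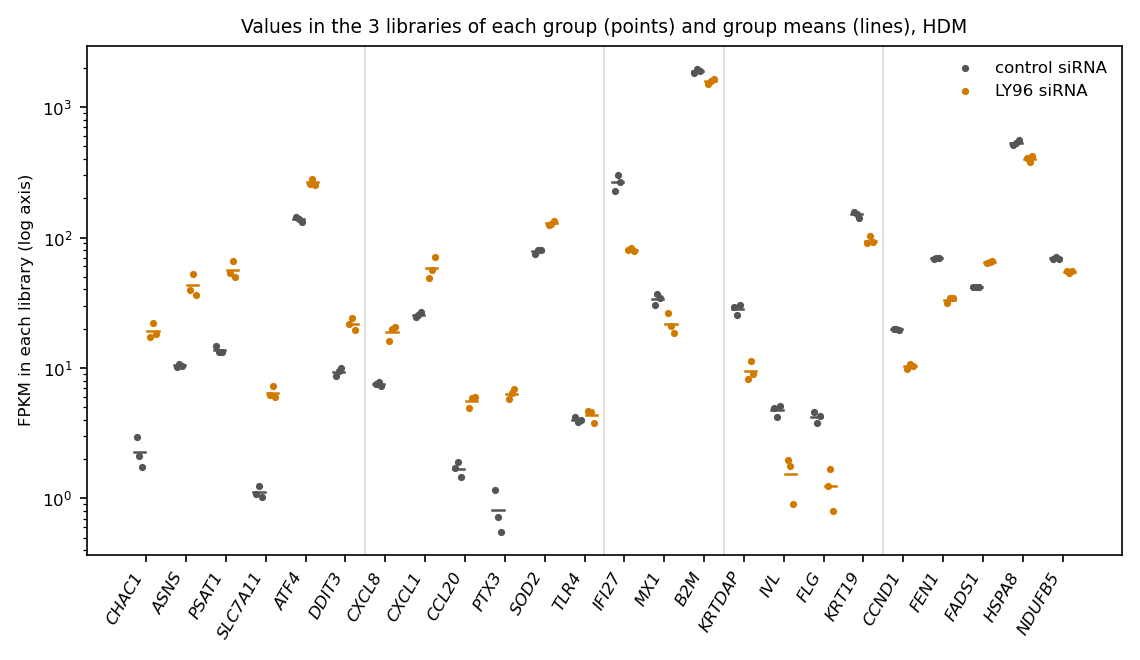
FPKM of 24 genes on a log axis, 1 point per library, for 3 control siRNA and 3 LY96 siRNA libraries under HDM. The groups separate for genes that rose, such as CHAC1 (1.74 to 2.93 against 17.2 to 22.3), and for genes that fell, such as IFI27 (227 to 303 against 79.0 to 82.5), and overlap for TLR4 (3.84 to 4.19 against 3.79 to 4.65).

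Sequences before the start site of CHAC1 and of ASNS, the asparagine synthetase described next, are shown because these genes had the largest rises of the stress response and amino acid lists. Each run is the 250 bases before the RefSeq (GRCh38.p14) start site, 5′ to 3′ on the gene's strand, and capitals mark TGATGNAA on either strand, the core of the amino acid response element bound by ATF4 with C/EBP partners.
CHAC1, chr15:40953221-40953470, plus strand: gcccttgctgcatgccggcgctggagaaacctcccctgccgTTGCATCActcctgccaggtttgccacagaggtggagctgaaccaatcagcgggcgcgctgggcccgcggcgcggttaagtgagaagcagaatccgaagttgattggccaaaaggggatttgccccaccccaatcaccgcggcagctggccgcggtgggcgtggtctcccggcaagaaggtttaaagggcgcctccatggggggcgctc
ASNS, chr7:97872409-97872658, minus strand: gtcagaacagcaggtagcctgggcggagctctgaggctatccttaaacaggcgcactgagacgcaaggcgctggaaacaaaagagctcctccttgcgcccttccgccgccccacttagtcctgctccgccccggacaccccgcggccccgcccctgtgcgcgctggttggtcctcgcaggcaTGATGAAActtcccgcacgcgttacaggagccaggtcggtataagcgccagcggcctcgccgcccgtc
The match begins 209 bases before the start of CHAC1, on the reverse strand, and 68 bases before that of ASNS. This motif was found in 3.62% of the 35116 RefSeq promoter windows (250 bases before to 50 after the start). It was found in 4 of the 29 windows of stress response genes (13.8%). Of the 19 stress response genes with a window, 4 held it (ATF3, CEBPG, CHAC1 and PPP1R15B), and all 4 rose; 10 of the 15 without it rose too. A match describes letters, not a bound site.

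Enzymes that make serine from a glycolytic intermediate all rose. PSAT1, the aminotransferase of that path (chr9:78297143-78330093, plus strand, GENCODE v29 on GRCh38), had 14.8, 13.3 and 13.2 FPKM with control siRNA and 53.6, 66.0 and 49.8 with LY96 siRNA. The lowest LY96 library was over the highest control library by a wide margin (log2 1.95 ± 0.10, adjusted p = 2.14e-04). PHGDH, the first enzyme of the path, had 43.7, 42.6 and 40.8 against 69.1, 80.1 and 70.1 FPKM and rose by 0.77, and PSPH, the last, rose by 0.68. In the folate branch 5 of 10 tested genes rose, and 4 of those encode mitochondrial enzymes: MTHFD2 by 0.98, SHMT2 by 0.64, ALDH1L2 by 0.63 and MTHFD1L by 0.36. The cytosolic counterparts SHMT1 (0.08) and MTHFD1 (-0.04) did not pass. Of 4 genes of the glycine cleavage system, GCSH fell by 0.30 and the others did not pass. In the whole list 8 of 17 tested genes rose (47.1%, beside 6.68% of all tested genes) and 1 fell (5.88%, beside 8.92%).

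ASNS (chr7:97852118-97872542, minus strand, GENCODE v29 on GRCh38), which makes asparagine and is a classic ATF4 target, stood at 10.2, 10.7 and 10.4 FPKM in the control libraries and at 39.7, 52.6 and 36.5 in the LY96 libraries. The control libraries were almost level, and the LY96 libraries were 4.11-fold higher on average (log2 1.92 ± 0.13, adjusted p = 8.30e-04). Among 10 tested synthesis genes, ASNS, GPT2 (0.66), PYCR1 (0.57) and CBS (0.46) rose, while GLUL fell by 0.25 and GOT1 by 0.16. The GOT1 call was lost without LY96 replicate 1 or 2 or control replicate 2 or 3 (adjusted p = 0.0627 to 0.0811). Of 11 tested transporters 8 rose and none fell. SLC7A11, the cystine importer that supplies glutathione synthesis, was at 1.09, 1.25 and 1.03 FPKM against 6.21, 7.24 and 5.93 (log2 1.81 ± 0.08, adjusted p = 2.04e-05). SLC1A5, a glutamine carrier, was at 42.8, 41.3 and 41.0 FPKM against 73.3, 83.8 and 71.3 and rose by 0.85. SLC6A9, a glycine carrier, also rose by 0.85, and SLC3A2, the chain shared by several amino acid exchangers, by 0.62. Its partner SLC7A5 rose by 0.26. In the whole amino acid list 12 of 21 tested genes rose (57.1%, beside 6.68% of all tested genes) and 2 fell (9.52%, beside 8.92%).

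Aminoacyl-tRNA synthetases, which load amino acids onto tRNA, divided by compartment. Of 20 cytosolic enzymes, 10 rose (50%, beside 6.68% of all tested genes) and none fell (median 0.14). Of 17 mitochondrial enzymes none rose and 1 (5.88%, beside 8.92%) fell, LARS2 by 0.18 (median -0.06). GARS, the glycine enzyme, led with 28.4, 27.6 and 26.1 FPKM against 49.97, 57.4 and 46.9. In that gene the groups were clearly apart (log2 0.88, adjusted p = 2.82e-04). YARS rose by 0.85, CARS by 0.84, AARS by 0.76, TARS by 0.64, MARS by 0.57, SARS by 0.52, IARS by 0.45, EPRS by 0.18 and NARS by 0.15. The last 2 calls were lost without control replicate 2 (adjusted p = 0.0558 for EPRS and 0.0534 for NARS). The other cytosolic enzymes lay between -0.12 (FARSA) and 0.13 (WARS) and did not pass. The difference between the compartments was not itself tested.

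Calls of the cytosolic enzymes were also set against promoter sequence, without a test. Windows were found for 16 of the 20, and 7 of these held TGATGNAA; each is shown as 30 bases around the match, on the gene's strand, with the match in capitals (TTGCATCA is its reverse complement).
AARS, chr16:70289675-70289704, minus strand: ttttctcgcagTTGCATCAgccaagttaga
CARS, chr11:3057407-3057436, minus strand: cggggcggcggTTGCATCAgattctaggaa
GARS, chr7:30594834-30594863, plus strand: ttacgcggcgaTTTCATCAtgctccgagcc
IARS, chr9:92293692-92293721, minus strand: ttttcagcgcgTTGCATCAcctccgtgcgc
MARS, chr12:57488053-57488082, plus strand: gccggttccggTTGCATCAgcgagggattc
NARS, chr18:57621804-57621833, minus strand: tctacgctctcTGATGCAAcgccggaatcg
TARS, chr5:33440956-33440985, plus strand: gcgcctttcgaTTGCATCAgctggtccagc
In 6 of these genes the match is TTGCATCA or its complement TGATGCAA. All 7 genes rose (median difference 0.64), and 2 of the 9 whose window lacks the motif rose (median -0.07). Over the 9925 tested genes with a window, 248 held TGATGNAA. Of those 248, 36 rose and 28 fell, so most genes with the motif did not pass. Of the 14 mitochondrial enzymes with a window, only YARS2 held the motif, and at -0.14 it did not pass. In the amino acid list 7 of 17 genes with a window held it; 5 of these rose (ASNS, SLC3A2, SLC7A1, SLC1A4 and SLC1A5), GOT1 fell and SLC38A1 did not pass. No match of the other motifs searched overlapped a printed match.

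**Figure D3:**
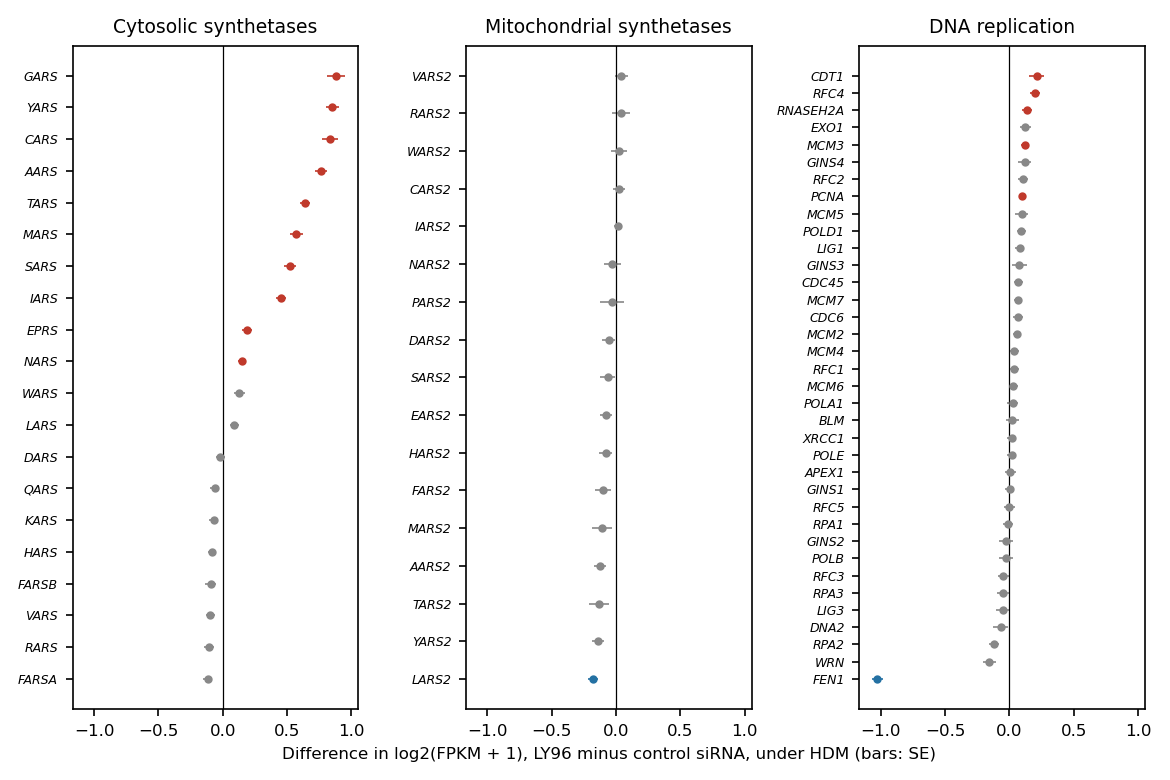
Log2 difference, LY96 minus control siRNA under HDM, with its SE, for each tested cytosolic synthetase, mitochondrial synthetase and DNA replication gene, in 3 panels. Cytosolic enzymes spread from -0.12 to 0.88, mitochondrial ones stay between -0.18 and 0.04, and FEN1 at -1.03 stands apart from the other replication genes.

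Genes of the ER stress response were partly higher, and heat shock genes were lower. The unfolded protein response detects misfolded protein in the ER. Of its 24 tested genes 7 rose (29.2%, beside 6.68% of all tested genes) and none fell (median 0.08). XBP1, whose message is spliced by the ER sensor IRE1, was at 29.6, 29.1 and 27.0 FPKM against 46.3, 49.6 and 42.6 and rose by 0.67. HERPUD1, an ER degradation factor that ATF4 also drives, was at 17.3, 16.1 and 17.3 against 30.7, 31.6 and 29.3 and rose by 0.82. HSPA5, the main ER chaperone, rose by less, with 98.2, 97.9 and 97.2 against 115, 110 and 118 FPKM (log2 0.23, adjusted p = 0.00269). Of 14 tested ER chaperone genes, HSPA5 among them, 5 rose and none fell (median 0.10). The chaperone partners DNAJB9, DNAJB11, SDF2L1 and CRELD2 lay between -0.09 and 0.01 and did not pass. Of 12 tested genes of the heat shock list, which holds cytosolic and mitochondrial chaperones and the transcription factor HSF1, 9 fell (75% of the list, beside 8.92% of all tested genes; median -0.21). HSPA8, the constitutive HSP70, dropped from 512, 533 and 555 FPKM to 406, 381 and 419 (log2 -0.41, adjusted p = 7.03e-04). HSPA1A and HSPA1B, near-identical copies whose reads may have been divided between them, fell by 0.37 and 0.38, HSPH1 by 0.36 and HSP90AA1 by 0.30.

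At the receptor end of the Toll-like pathway 2 of 4 tested genes rose, beside 6.68% of all tested genes, with calls that depended on single libraries. TLR4 was at 4.19, 3.84 and 3.96 FPKM with control siRNA and 4.65, 4.57 and 3.79 with LY96 siRNA; the groups overlapped (log2 0.09, adjusted p = 0.437). CD14, which hands lipopolysaccharide to MD-2, differed by -0.07, MYD88 by 0.03 and TICAM1, which encodes TRIF, by -0.06, and none passed. Of 19 tested genes of the pathway 3 rose (15.8%, beside 6.68% of all tested genes), and none fell. The 3 were the kinase IRAK2 (by 0.41), TLR2 (by 0.36) and TLR3 (by 0.25). The calls of both receptors were weak. TLR2 lost its call without LY96 replicate 3 (adjusted p = 0.0506) or control replicate 3 (0.0508), and TLR3 without LY96 replicate 2 (0.0598) or control replicate 1 (0.0506).

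Genes of the NF-kB system, downstream, rose in 11 of 17 cases (64.7%, beside 6.68% of all tested genes), and none fell (median 0.31). Of 5 subunits, 4 rose: RELB by 0.45, REL by 0.34, and NFKB1 and NFKB2 by 0.31 each, while RELA, at 0.10, did not pass. NFKBIA, the inhibitor that NF-kB itself induces, was at 52.9, 57.4 and 53.1 FPKM against 66.0, 71.4 and 75.2, a rise of 0.37 with no overlap. TNFAIP3, the ubiquitin editor A20 that dampens the pathway, rose by 0.41 and its partner TNIP1 by 0.28, but BIRC2 (-0.01) and BIRC3 (-0.03) did not pass. SOD2, the mitochondrial superoxide dismutase and a strong NF-kB target, was at 75.2, 79.5 and 80.4 FPKM against 126, 127 and 134 (1.64-fold, log2 0.71 ± 0.04, adjusted p = 3.06e-05). TNFAIP2 rose by 0.67. ICAM1, the adhesion molecule often used as an NF-kB readout, differed by 0.07 and did not pass (adjusted p = 0.277).

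Chemokine genes for neutrophils were higher throughout. All 6 tested passed, with a median of 0.94. Of the 12 tested chemokine and colony-stimulating factor genes 8 rose (66.7%, beside 6.68% of all tested genes), with a median of 0.68. Of the 18 listed 6 were below the minimum. CXCL8, which encodes interleukin 8 (chr4:73740506-73743716, plus strand, GENCODE v29 on GRCh38), was at 7.52, 7.81 and 7.26 FPKM with control siRNA and 15.9, 20.01 and 20.5 with LY96 siRNA (2.50-fold, log2 1.21 ± 0.09, adjusted p = 2.09e-04). CXCL1 had 24.4, 25.6 and 26.7 FPKM against 48.6, 56.6 and 70.7 (log2 1.15 ± 0.14, adjusted p = 0.00607). CXCL6 had 1.53, 1.68 and 1.62 FPKM against 3.62, 4.30 and 6.09. In each of these genes the controls were close together, and LY96 replicate 3 was the highest. CXCL6 rose by 1.09, CXCL5 by 0.78, CXCL2 by 0.76 and CXCL3 by 0.60; the CXCL2 call was lost without control replicate 3 (adjusted p = 0.0727). CCL20, which draws dendritic cells through CCR6, rose from 1.71, 1.89 and 1.45 FPKM to 4.93, 5.83 and 5.96 (3.32-fold, log2 1.29 ± 0.09, adjusted p = 1.11e-04). CCL2, the monocyte attractant and the most abundant of them per length, was at 69.8, 70.6 and 76.4 FPKM against 101, 102 and 117 and rose by 0.56. CX3CL1 (-0.14), CSF1 (0.13), CXCL10 (0.46) and CXCL16 (0.01) did not pass.

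The sequence before CXCL1 is shown because CXCL1 had, after CXCL8, the largest rise of the neutrophil chemokines. Capitals mark GGGA and TTCC with any 2 bases between them, a form of the kappa-B motif bound by NF-kB, in the 250 bases before the RefSeq (GRCh38.p14) start.
CXCL1, chr4:73869143-73869392, plus strand: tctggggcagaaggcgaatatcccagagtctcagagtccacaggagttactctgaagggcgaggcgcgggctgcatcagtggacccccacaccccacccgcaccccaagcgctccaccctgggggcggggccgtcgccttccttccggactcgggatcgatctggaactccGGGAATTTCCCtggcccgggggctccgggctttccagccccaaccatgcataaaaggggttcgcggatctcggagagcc
Matches on the 2 strands overlap there and begin 79 and 78 bases before the start. The motif was found in 1.61% of all RefSeq promoter windows and in 8 of the 26 windows of NF-kB system genes (30.8%). Counted by gene, 8 of the 15 NF-kB system genes with a window held it. Of those 8, 7 rose, against 3 of the 7 without it. Over all tested genes with a window, 229 held the motif, of which 31 rose and 26 fell. Windows were found for only 8 of the 12 tested chemokine genes (66.7%), so the share there is void; CXCL1, CXCL2, CXCL3, CXCL5, CXCL6 and CXCL10 held the motif.

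Among interleukin and TNF family genes 8 of 15 tested rose (53.3%, beside 6.68% of all tested genes) and 2 fell (13.3%, beside 8.92%). The median of the 15 was 0.23, and 11 of the 26 listed were below the minimum. IL6 was at 1.95, 2.36 and 2.62 FPKM against 3.68, 4.54 and 5.25, a rise of 0.72 without overlap (adjusted p = 0.00516). IL1A rose by 0.65, IL1B by 0.54, LIF by 0.43, and SOCS3, the feedback inhibitor of IL-6 signalling, by 0.41. IL32 was at 40.6, 40.6 and 44.1 FPKM against 59.8, 56.0 and 68.3 and rose by 0.54. IL18, by contrast, fell from 24.8, 24.5 and 26.9 FPKM to 19.5, 19.1 and 20.5 (log2 -0.35), and TNFSF10, which encodes TRAIL, fell by 0.26.

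Soluble defence genes were mixed. PTX3, a pentraxin that opsonises microbes, had 1.15, 0.723 and 0.554 FPKM with control siRNA and 5.73, 6.47 and 6.85 with LY96 siRNA (7.84-fold, log2 2.03 ± 0.12, adjusted p = 5.68e-05). CFB, the complement factor B gene, had 56.6, 60.4 and 61.4 against 83.6, 87.6 and 95.0 and rose by 0.57. The classical pathway proteases C1S and C1R rose by 0.57 and 0.52, and C3 (0.20, adjusted p = 0.0952) did not pass. SAA1, an acute-phase protein, had 163, 164 and 179 FPKM against 203, 211 and 255. Its call (log2 0.40, adjusted p = 0.0359) was lost without LY96 replicate 2 (0.0766) or any 1 of control replicates 1 (0.0946), 2 (0.112) and 3 (0.0571). Both of the 2 tested antimicrobial genes fell, PI3 by 0.35, as did 1 of 4 tested acute-phase genes. The PI3 call was lost without LY96 replicate 1 (adjusted p = 0.0953) or control replicate 1 (0.0692) or 3 (0.0814). In this list 7 of 15 tested genes rose (46.7%, beside 6.68% of all tested genes) and 3 fell (20%, beside 8.92%), with a median of 0.20. The number that fell was 1 without LY96 replicate 1 or control replicate 1 and 0 without control replicate 3.

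**Figure D4:**
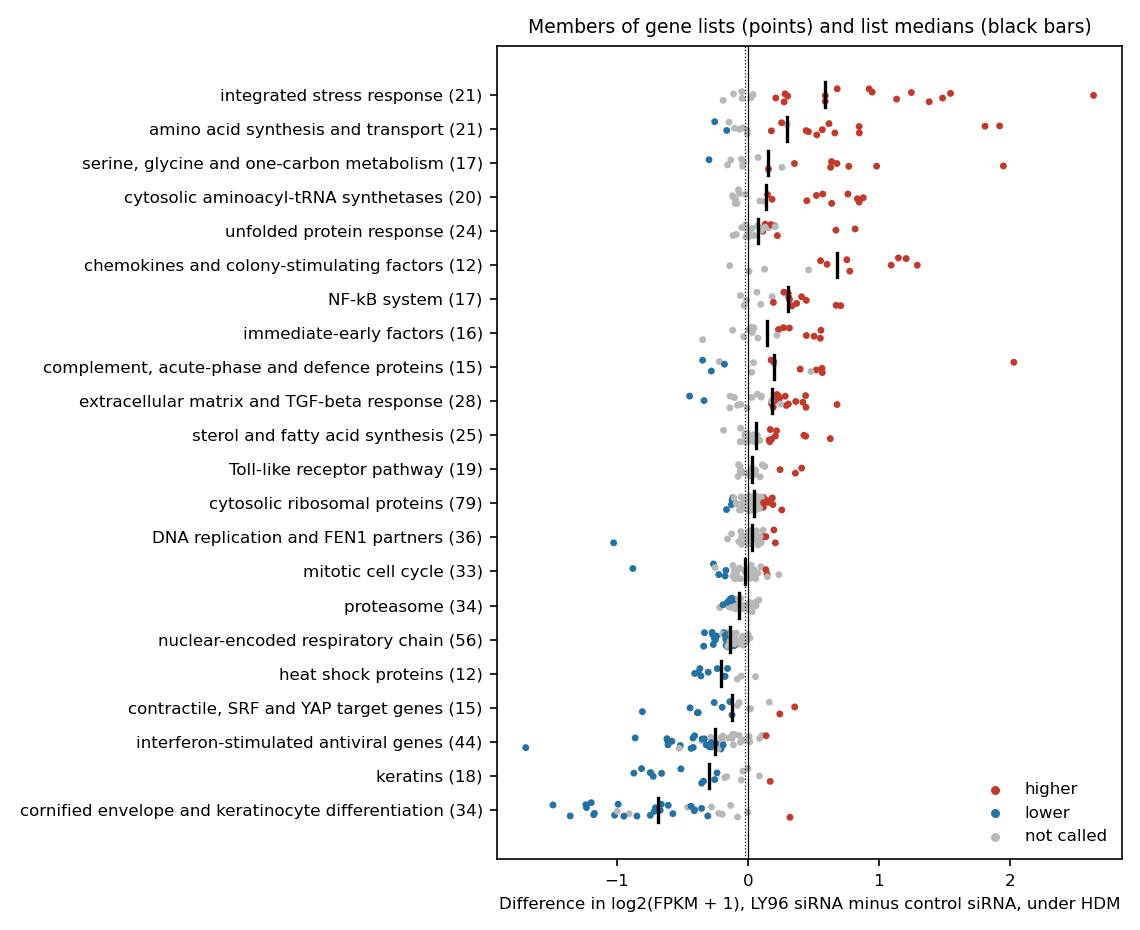
Log2 difference, LY96 minus control siRNA under HDM, of every tested member of 22 gene lists (1 point per gene, with the list's median as a bar). Stress response (median 0.59) and chemokine (0.68) genes lie to the right of 0, and interferon-stimulated (-0.25) and cornification (-0.69) genes to the left. The median of the Toll-like receptor pathway (0.03) is near 0.

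Interferon-stimulated genes, in contrast to NF-kB targets, were lower. Of 44 tested (ZBP1 was below the minimum), 20 fell and 1 rose; 38 of the 44 differences were below 0, with a median of -0.25. The 1 that rose, IFITM2 by 0.14, lost its call without any 1 of LY96 replicates 1, 2 and 3 or of control replicates 1 and 3 (adjusted p = 0.059 to 0.0923). The share that fell was 45.5%, beside 8.92% of all tested genes. The count leaned on single libraries: 9 fell without LY96 replicate 2, without LY96 replicate 3 or without control replicate 2, and 10 without control replicate 3. IFI27 (chr14:94104836-94116698, plus strand, GENCODE v29 on GRCh38), a small mitochondrial membrane protein and a sensitive interferon marker, was far beyond the rest, at 227, 303 and 267 FPKM with control siRNA and 80.6, 82.5 and 79.0 with LY96 siRNA. Control libraries varied and LY96 libraries hardly did, and the mean was 3.29-fold lower (log2 -1.70 ± 0.10, adjusted p = 5.33e-04).

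Other antiviral genes fell by less. CMPK2, a mitochondrial nucleotide kinase, was at 2.09, 3.43 and 2.59 FPKM against 1.04, 0.981 and 1.03 (log2 -0.86, adjusted p = 0.00302). BST2, the protein tetherin that holds virus particles at the cell surface, was at 82.8, 90.1 and 87.7 against 63.3, 64.1 and 64.6 (log2 -0.43, adjusted p = 2.54e-04). HERC5, the ligase that attaches ISG15, fell by 0.61, OAS1 by 0.52, TRIM22 by 0.42 and IFIT2 by 0.41. MX1, a GTPase that traps viral ribonucleoproteins, was at 30.4, 36.7 and 34.5 FPKM against 26.3, 21.0 and 18.4 (log2 -0.62, adjusted p = 0.0395). The MX1 call was lost without LY96 replicate 2 (0.126) or 3 (0.0564) and without control replicate 1 (0.0571), 2 (0.114) or 3 (0.112). ISG15 (-0.19) and IFI44L (-0.24) did not pass. For 34 of the 44 genes LY96 replicate 1 was the highest of its group, and for 32 replicate 3 was the lowest; among controls, replicate 1 was the lowest for 36.

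The interferon pathway itself changed little. No receptor gene fell, IFNGR1 rose by 0.24, and IFNB1, IFNL1 and IFNK were below the minimum. STAT2, which helps carry the type I signal to the nucleus, fell by 0.25 (adjusted p = 0.00391), and its partner IRF9 (-0.12) did not pass. Antigen presentation by HLA class I, which interferon raises, was lower in 4 of 7 tested genes, beside 8.92% of all tested genes. B2M, the invariant light chain, was at 1833, 1972 and 1907 FPKM against 1511, 1580 and 1643 (log2 -0.27, adjusted p = 0.00267). HLA-F fell by 0.28 and HLA-E by 0.22; HLA genes are close relatives, so their reads may have been divided between them. ERAP1 and ERAP2, which trim peptides for presentation, rose by 0.21 and 0.18.

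The sequence before IFI27 is shown because this gene had the largest fall in the list. Capitals mark GAAA and GAAA with any 2 bases between them, on either strand, a core of the interferon-stimulated response element, in the 250 bases before the RefSeq (GRCh38.p14) start.
IFI27, chr14:94110486-94110735, plus strand: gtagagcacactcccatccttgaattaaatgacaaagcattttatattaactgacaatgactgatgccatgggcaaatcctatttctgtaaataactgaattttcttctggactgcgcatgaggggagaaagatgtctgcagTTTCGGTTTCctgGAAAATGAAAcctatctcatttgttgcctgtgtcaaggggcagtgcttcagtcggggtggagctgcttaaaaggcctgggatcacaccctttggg
The first match, on the reverse strand, begins 108 bases before the start, and the second begins 95 bases before it. This motif was found in 3.57% of all RefSeq promoter windows. Windows were found for 35 of the 44 genes (79.5%), so the share in the list is void. Of the 35, 26 held the motif, and 13 of these 26 and 3 of the 9 without it fell. Over all tested genes with a window, 389 held the motif, of which 30 rose and 51 fell.

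Genes of the cornified envelope, the tough protein shell of dying surface keratinocytes, were lower as a group. Airway cells switch on part of this programme in squamous metaplasia. Of 34 tested genes 24 fell (70.6%, beside 8.92% of all tested genes) and 1 rose; 33 of the 34 differences were below 0, with a median of -0.69. The crosslinking enzyme gene TGM2 rose by 0.32, a call lost on leaving out any 1 library but control replicate 1 (adjusted p = 0.0878 to 0.127). Another 6 listed genes, among them LOR and CRNN, were below the minimum. KRTDAP, a secreted differentiation peptide (chr19:35487324-35495558, minus strand, GENCODE v29 on GRCh38), was at 29.5, 25.2 and 30.2 FPKM with control siRNA and 8.19, 11.3 and 8.96 with LY96 siRNA (2.98-fold lower, log2 -1.49 ± 0.12, adjusted p = 9.90e-04). FLG, the filaggrin gene, was at 4.59, 3.75 and 4.31 against 1.24, 1.67 and 0.800 (log2 -1.24, adjusted p = 0.00108). IVL, the envelope scaffold involucrin, was at 4.94, 4.20 and 5.10 against 1.95, 1.78 and 0.907 (log2 -1.20, adjusted p = 0.00386). In all 3 genes every LY96 library was below every control library.

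Small proline-rich envelope proteins, which sit next to FLG and IVL in the epidermal cluster, also fell: SPRR2E by 1.17, SPRR2D by 0.71 and SPRR1B by 0.70. SPRR genes are close copies, so reads may have been divided between them. SPRR1A was at 32.9, 29.7 and 26.7 FPKM against 12.6, 13.1 and 7.90, with LY96 replicate 3 the lowest. Its fall (log2 -1.36, adjusted p = 0.0151) lost the call without control replicate 2 (0.0604). SPRR3 (-0.91) and SPRR2A (-0.46) did not pass. SCEL fell by 0.95, LYPD3 by 0.75, CNFN by 0.67, CDSN by 0.66 and EVPL by 0.35. LCE3E, another gene of that cluster, named after its values were seen and not in the list, was at 2.99, 2.21 and 2.99 against 0.548, 0.800 and 0.219 FPKM (log2 -1.30).

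Of 7 tested genes for proteases of the surface layer and their inhibitors 6 fell, beside 8.92% of all tested genes. SPINK5, which encodes the inhibitor LEKTI, was at 28.4, 24.5 and 28.7 FPKM against 10.9, 13.1 and 9.14 (log2 -1.23). KLK7, a kallikrein that LEKTI restrains, was at 10.7, 10.8 and 10.5 against 4.81, 5.04 and 2.88 (log2 -1.18). The groups were well apart for both, and KLK10 fell by 0.71, KLK8 by 0.57 and CST6 by 0.41. Of the transcription factors that direct the programme, OVOL1 fell by 0.43 and GRHL1 by 0.41. The OVOL1 call was lost without control replicate 1 (0.0707) or 2 (0.0656). KLF4 (-0.00), ZNF750 (-0.20) and TP63 (-0.08), the basal cell factor, did not pass.

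The sequence before KRTDAP is shown because this gene had the largest fall of its list. Capitals mark TGANTCA, the AP-1 motif.
KRTDAP, chr19:35490465-35490714, minus strand: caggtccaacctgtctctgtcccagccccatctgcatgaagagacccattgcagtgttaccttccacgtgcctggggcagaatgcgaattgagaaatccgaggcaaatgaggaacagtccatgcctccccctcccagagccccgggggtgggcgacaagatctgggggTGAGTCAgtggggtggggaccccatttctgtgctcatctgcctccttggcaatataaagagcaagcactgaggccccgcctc
The match begins 82 bases before the RefSeq (GRCh38.p14) start. This motif was found in 7.71% of all promoter windows. Windows were found for 24 of the 34 genes (70.6%), so the share in the list is void; 10 held the motif and 8 of them fell, against 10 of the 14 without it.

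Keratins of differentiated and of simple epithelia were lower. Of 18 tested, 10 fell (55.6%, beside 8.92% of all tested genes) and 1 rose (5.56%, beside 6.68%), with a median of -0.30. KRT19, a keratin of simple and luminal epithelium, was at 156, 152 and 142 FPKM against 90.3, 102 and 92.1 (log2 -0.66, adjusted p = 2.44e-04). KRT23 fell by 0.72, KRT6B by 0.51, KRT8 by 0.25 and KRT18 by 0.24. The basal keratin KRT14 rose by 0.17, and KRT5, at 0.09, did not pass. KRT10, the suprabasal keratin, was at 150, 132 and 133 against 83.4, 93.2 and 61.7 FPKM (log2 -0.81, adjusted p = 0.034). Its call was lost without LY96 replicate 1 (0.0925) and without control replicate 1 (0.0952), 2 (0.0954) or 3 (0.0922). S100A7 and S100A9, calcium-binding alarmins of inflamed squamous epithelium, fell by 0.53 and 0.33. Of 13 tested S100 genes 5 fell (38.5%, beside 8.92% of all tested genes) and 2 rose (15.4%, beside 6.68%). The number that fell was 3 without LY96 replicate 1 or control replicate 1 or 3. The number that rose was 1 without LY96 replicate 1, 2 or 3 or control replicate 1, and 0 without control replicate 2 or 3. S100A9 was among the most abundant messages per length, at 1082, 993 and 986 FPKM against 831, 847 and 764. Of 24 junction genes 2 rose (8.33%, beside 6.68% of all tested genes) and 6 fell (25%, beside 8.92%). The number of junction genes that fell was 3 without control replicate 1 or 2, and 4 under median-ratio or quantile scaling. CDH1, which encodes E-cadherin, was at 28.1, 27.0 and 27.3 FPKM against 41.6, 39.6 and 35.8 and rose by 0.49, and the tight junction gene CLDN4 fell by 0.74 and the desmosomal DSC2 by 0.54.

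FEN1, the flap endonuclease that trims Okazaki fragments, fell alone among its partners. It was at 68.0, 69.5 and 69.8 FPKM with control siRNA and 31.6, 34.2 and 34.6 with LY96 siRNA. Both groups were tight and far apart (2.06-fold lower, log2 -1.03 ± 0.04, adjusted p = 1.29e-05). Of 36 tested replication and repair genes FEN1 was the 1 that fell (2.78%, beside 8.92% of all tested genes). Another 5 rose by at most 0.21 (13.9%, beside 6.68%). That count was between 0 and 3 when any 1 library was left out (0 without control replicate 2). LIG1, the ligase that seals what FEN1 trims, differed by 0.08 and did not pass (adjusted p = 0.2). PCNA, the sliding clamp that holds both, was at 265, 274 and 263 FPKM against 284, 291 and 283, a log2 difference of 0.10 (adjusted p = 0.0437) whose call was lost whichever library was left out (adjusted p up to 0.135, without control replicate 3). CCND1, the G1 cyclin, was also lower, at 19.9, 19.8 and 19.6 FPKM against 9.85, 10.8 and 10.3 (log2 -0.88 ± 0.04, adjusted p = 2.04e-05). Of 33 tested mitotic and G1 genes 2 rose (6.06%, beside 6.68% of all tested genes) and 5 fell (15.2%, beside 8.92%), and MKI67 (0.02) and TOP2A (0.01) did not pass. The number that fell was 3 without LY96 replicate 3 or control replicate 2 or 3. The number that rose was 1 without control replicate 1 or 3, and 0 without control replicate 2.

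The neighbours of FEN1 were looked at after its values were seen. FEN1 (chr11:61792637-61797244, plus strand, GENCODE v29 on GRCh38) shares part of its span with TMEM258 (chr11:61768501-61792802, minus strand) and most of its span with the start of FADS2 (chr11:61792980-61867354, plus strand). Reads of overlapping genes can be assigned to either, and the sources used here do not give the strand setting of the counting. TMEM258 fell by 0.13, a call lost without LY96 replicate 1 or 2 or control replicate 1 or 3 (adjusted p = 0.058 to 0.0868). FADS2, a fatty acid desaturase, rose by 0.22 (adjusted p = 0.0172), a call lost without LY96 replicate 3 (0.0527) or control replicate 1 (0.0591) or 3 (0.0585). FADS1, the neighbouring desaturase, does not overlap FEN1 (chr11:61799625-61829318, minus strand). It was at 41.8, 41.5 and 41.5 FPKM against 63.9, 64.4 and 66.4 (1.56-fold, log2 0.63 ± 0.03, adjusted p = 2.04e-05). The part of overlapping reads in these values was not tested.

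Matrix genes rose and contractile genes fell. Of 28 tested matrix and TGF-beta genes 14 rose (50%, beside 6.68% of all tested genes) and 2 fell (7.14%, beside 8.92%), with a median of 0.19; 9 rose without control replicate 1. The fibroblast marker THY1, outside this list, rose as well, and the fibroblast marker COL1A1 is itself in the list. The part of such cells in the matrix result was not tested. Among the genes of the list that rose were laminin chain genes of the epithelial basement membrane, LAMB3 by 0.68 and LAMA3 by 0.31. The LAMA3 call was lost without LY96 replicate 2 (0.052) or 3 (0.0527) or control replicate 1 (0.0504). LAMB3 was at 11.9, 12.5 and 12.3 FPKM against 20.5, 19.6 and 20.5 (adjusted p = 4.71e-05). COL6A1 and COL5A1 rose by 0.44 each, and THBS1 fell by 0.33 and TGFB2 by 0.44. Of 15 contractile and YAP target genes 2 rose (13.3%, beside 6.68%) and 8 fell (53.3%, beside 8.92%). The median of the 15 was -0.12, and 5 fell without control replicate 2 or 3. TAGLN, an actin-bundling protein of smooth muscle, was at 69.4, 59.3 and 67.9 FPKM against 41.8, 38.4 and 31.5 (log2 -0.81, adjusted p = 0.00902). MYL9, a myosin light chain, fell by 0.39 and the YAP target ANKRD1 by 0.44. CYR61 (0.01) and CTGF (0.16), the usual YAP readouts, did not pass.

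Energy and lipid genes shifted by small amounts. The respiratory chain genes encoded in the nucleus had 54 of 56 differences below 0 (median -0.13). Of the 56, 22 fell (39.3%, beside 8.92% of all tested genes) and none rose. The count depended on single libraries: 9 fell without LY96 replicate 1, 14 without LY96 replicate 3, and 12, 7 and 9 without control replicates 1, 2 and 3. NDUFB5, a complex I subunit, was at 69.0, 71.1 and 68.3 FPKM against 55.3, 53.4 and 55.6 (log2 -0.34, adjusted p = 4.28e-04). Of 79 cytosolic ribosomal protein genes 12 rose (15.2%, beside 6.68% of all tested genes) and 4 fell (5.06%, beside 8.92%), with a median of 0.05. After median-ratio scaling 27 of these genes rose, so no direction is drawn for them. Of 27 tested glycolysis and hypoxia genes 3 rose (11.1%, beside 6.68%) and 5 fell (18.5%, beside 8.92%), with a median of 0.01. The number that fell was 3 under median-ratio scaling and without LY96 replicate 1 or 3 or control replicate 1, 2 or 3. SLC2A3, a high-affinity glucose carrier, was at 5.93, 5.58 and 5.31 FPKM against 2.97, 2.77 and 2.60 and fell by 0.80. PFKP fell by 0.36, whereas GAPDH (0.06) and LDHA (-0.07) did not pass. In sterol and fatty acid synthesis 9 of 25 genes rose (36%, beside 6.68% of all tested genes) and none fell. Without control replicate 3 the number that rose was 5. INSIG1, a brake on sterol synthesis, rose by 0.44. Immediate-early factors rose in 7 of 16 cases (43.8%, beside 6.68% of all tested genes), and none fell. JUNB rose by 0.56, KLF2 by 0.55, IER3 by 0.51 and EGR1 by 0.45, and FOS (0.03) and JUN (-0.03) did not pass.

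The libraries of the LY96 group did not rank the same way in each gene list. LY96 replicate 2 was the highest of its group for 16 of 21 stress response genes and for 16 of 20 cytosolic synthetases. Replicate 3 was the highest for 11 of 12 chemokine genes and the lowest for 28 of 34 cornification genes, and replicate 1 was the lowest for 45 of 56 respiratory chain genes. Median differences from the control mean were 0.56, 0.67 and 0.50 in LY96 replicates 1, 2 and 3 for the stress response list. For chemokine genes they were 0.57, 0.56 and 0.90, and for cornification genes -0.62, -0.56 and -0.80. Each LY96 library thus moved in the same direction, to unequal degrees. What sets these libraries apart was not tested.

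**Figure D5:**
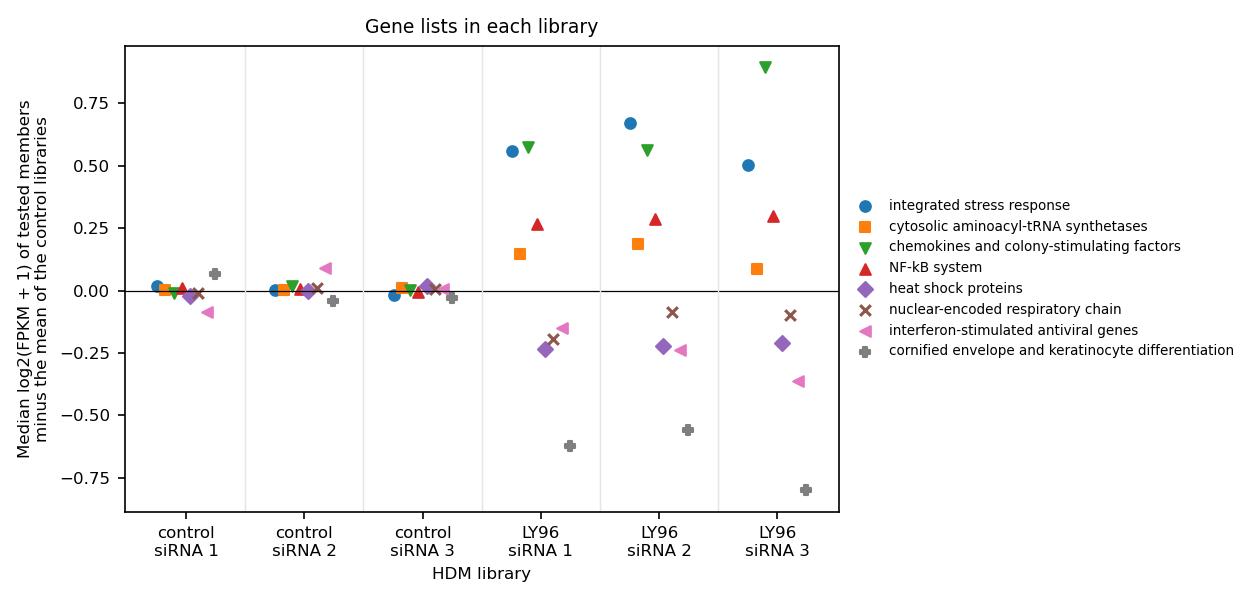
Median over the tested members of 8 gene lists of each library's log2(FPKM + 1) minus the mean of the 3 control libraries, 1 point per library. For stress response genes the LY96 libraries lie at 0.50 to 0.67, for chemokine genes at 0.56 to 0.90 and for cornification genes at -0.80 to -0.56, with control libraries near 0.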

How the data were processed

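Total RNA of BEAS-2B cells was sequenced, and the tables the authors deposited hold 1 value for each of 26485 gene symbols per library. No label or header names their unit. What the authors deposited was taken as FPKM, because values are not whole numbers, library totals differ and no whole-read steps were found. HISAT2 2.2.0 and the build hg38 are named in the submitters' processing notes; the sources used here do not give the program and annotation behind the FPKM. Depth per library is unknown, so no counting interval is given, and an exact 0 can be a failed estimate. How reads were divided between overlapping genes or near-identical copies is unknown. Libraries were grouped by the labels' titles, 3 against 3; the PBS libraries were left out by the design of the comparison.

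The genes whose 6 libraries averaged 1 FPKM or more were tested with limma 3.58.1 (R 4.3.3) on log2(FPKM + 1); the fit used robust moderation along a mean-variance trend and had 4 residual degrees of freedom. The log2 differences are LY96 minus control siRNA on this scale, which understates changes of low genes; fold values are ratios of mean FPKM. Two-sided p-values of genes were adjusted by Benjamini-Hochberg over all 12598, with a threshold of 0.05. Just inside the minimum was LOC729603 (mean 1.00036 FPKM) and just outside MIR99AHG (0.998768). In simulated data of that size, 97% of genes changed 2-fold and 99% of those changed 4-fold were recovered, with 10 false among 206 calls. Only changes of 2-fold and 4-fold were simulated, with noise drawn separately for each gene and library. Most calls in the data were below 1.5-fold, so the simulation does not show how well they are recovered or how many are false.

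The members and the 45 gene lists were chosen with earlier results of these data known. The rule for naming took 257 genes: in each direction the 15 called genes that differed most, of those whose groups did not overlap and whose mean reached 5 FPKM, the 5 with the smallest p and the 10 with the highest FPKM, up to 6 called members per list by size of difference, and genes at the heads of pathways; not all are reported. Another 59 called genes, mostly further members of those lists, were named after their values were seen. The alternatives were pseudocounts of 0.1 and 0.25, no low-value filter, a mean of at least 5 FPKM, median-ratio scaling, quantile normalization, limma without trend or robust moderation, the replicate number as a block, and leaving out each library. Gene coordinates are from GENCODE v29 (GRCh38). Promoter sequences are RefSeq's (GRCh38.p14), from 250 bases before to 50 after the start; TGATGNAA, TGANTCA, and GAAA before GAAA or GGGA before TTCC with any 2 bases between, were searched on both strands. A promoter was matched to a gene by symbol, for 9925 of the 12598 tested genes.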

Additional observations from a re-analysis of the deposited data

How the results depend on the processing

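Of 232 named genes that passed the test, 156 passed in every alternative that tested them, 76 lost the call in at least 1 of 14, and 0 reversed; of the 59 named later, 51 passed in every one, 8 did not, and 0 reversed. Leaving out 1 library gave 1119 to 1369 calls in place of 1966, with fewer samples in each fit. Of these, 566 to 646 were higher, 535 to 580 of them among the 842, and 553 to 799 were lower, 524 to 713 of them among the 1124. The totals of 1119 without control replicate 2 and 1243 without control replicate 3 were over 1.5 times below that of all 6 libraries. The lower calls were as far below without LY96 replicate 1 (696) or 3 (739) and without control replicate 1 (747), 2 (553) or 3 (663). Without the low-value filter 1383 of 19700 genes passed, and without trend and robust moderation 1521. With median-ratio scaling 1068 were higher and 877 lower, and with quantile normalization 991 and 957; the median of all genes moved from -0.02 to -0.00 and -0.01. The lists of chemokines and of interleukins had 4 genes higher each with the minimum of 5 FPKM, where fewer members were tested, and 15 cornification genes fell there.

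The replicate numbers were shared by the groups, but libraries of the same number did not deviate together (r = 0.048, -0.016 and -0.016 across genes, against -0.028 to 0.039 for other pairs). With the replicate block 1635 genes passed, 716 higher and 919 lower, and 13 interferon-stimulated genes fell in place of 20. Precision is limited by 3 libraries per group and an unknown depth.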

Other observations

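Some genes outside the lists, named after their values were seen, moved with the groups described. ADM2, a peptide hormone gene induced with ATF4, was at 0.472, 0.469 and 0.243 FPKM with control siRNA and 2.63, 3.11 and 2.31 with LY96 siRNA (log2 1.40). C1QTNF1 rose by 0.94, TSC22D3, a glucocorticoid-induced leucine zipper gene, by 0.86, SLC39A8, a zinc importer, by 0.85, the lymphotoxin gene LTB by 0.79 and JDP2, a repressor of AP-1, by 0.77. Among the falls were POF1B (-0.97), GPC4 (-0.87), LGALS9 (-0.82), NCCRP1 (-0.72), VGLL1 (-0.70) and CYP4B1 (-0.69). CD68, a lysosomal protein often used as a macrophage marker, was at 3.43, 2.79 and 3.53 FPKM against 5.21, 5.30 and 4.93 (log2 0.54), while PTPRC and TYROBP were at 0 in all 6 libraries.

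Several of the largest differences that did not pass lay in overlapping or near-identical genes, in which values switched between partners. SERF2-C15ORF63, a read-through gene, was at 0, 0 and 41.5 FPKM with control siRNA and 37.4, 30.6 and 44.6 with LY96 siRNA (adjusted p = 0.281). HYPK, which it overlaps, was at 32.7, 33.3 and 1.26 against 2.36, 4.84 and 0.149 (adjusted p = 0.366). C4A was listed at 0 in the 3 control libraries and at 10.1, 0 and 15.9 with LY96 siRNA, and its near-identical copy C4B at 15.3, 13.7 and 12.8 against 5.06, 14.9 and 0.268. Control replicate 3 alone was low for H3F3A (124, 107 and 2.91 FPKM against 116, 117 and 116). Noncoding RNAs varied as much: RNA18S5 was at 1502, 686 and 1003 against 2097, 2072 and 2716 (adjusted p = 0.101), and RN7SK at 18.5, 4.98 and 6.95 against 22.1, 23.0 and 28.0 (adjusted p = 0.160).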
